A study of Mus musculus with 10 samples.

Results

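The extracellular matrix outside the collagens was followed in mouse brown adipocytes through 40 genes, taken by symbol from the 24640 rows of a count table. They comprised 6 adhesive and matricellular glycoproteins, 9 elastic fibre and microfibril proteins, 4 lysyl oxidases, 7 proteoglycans, 9 basement membrane proteins, the calcification inhibitor Mgp and 4 collagen hydroxylases. All 40 were listed in the table, and 37 had enough counts to be tested. The rule took genes by name and function and used no measured value, but it was written with earlier results of these data known.

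RNA sequencing had been done on C57BL/6 brown adipocytes, the fat cells that burn fuel for heat, in 5 groups of 2 libraries. Cells received BML-260 or DMSO, the usual solvent for such compounds, for 1 day or for 3 days, and another group received ISO, an abbreviation that the labels do not spell out and to which they give a time of 1 day. BML-260 is known as a small-molecule inhibitor of the phosphatase JSP-1. All groups shared the strain and the labelled cell type. The labels give neither a dose, an age of the animals nor a statement that the 2 libraries of a group came from separate cultures, so the p-values below rest on how far apart the libraries of a group lay, a spread that could be purely technical.

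As background, the matrix around a cell is built from collagens and from the proteins studied here. Fibronectin and other adhesive glycoproteins link cells to fibres, fibrillins and fibulins form the microfibrils on which elastin is laid down, and lysyl oxidases cross-link collagen and elastin outside the cell. Small leucine-rich proteoglycans such as biglycan and decorin coat collagen fibrils, while laminins, nidogens and perlecan make the basement membrane that wraps each fat cell. Prolyl and lysyl hydroxylases act earlier, inside the cell, on new collagen chains.

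Promoter sequence was printed for 4 members that went different ways below: Tnc and Lama5, both lower with BML-260, and Plod1 and P4ha2, which were higher after 3 days. Each line gives the 250 bases upstream of the gene's start, 5′ to 3′ on the gene's strand, from RefSeq on GRCm38.p6. Capitals mark 4 of the 7 searched motifs on either strand: the GC box GGGCGG, the box TATAAA, the E-box-like core ACGTG and the cyclic AMP element core TGACG. The windows are chr4:64047016-64047265 for Tnc (minus strand), chr2:180225860-180226109 for Lama5 (minus strand), chr4:147936777-147937026 for Plod1 (minus strand) and chr11:54100674-54100923 for P4ha2 (plus strand). None of them holds an exon base of GENCODE M21, and the P4ha2 window lies in an intron of the longer GENCODE gene.
Tnc: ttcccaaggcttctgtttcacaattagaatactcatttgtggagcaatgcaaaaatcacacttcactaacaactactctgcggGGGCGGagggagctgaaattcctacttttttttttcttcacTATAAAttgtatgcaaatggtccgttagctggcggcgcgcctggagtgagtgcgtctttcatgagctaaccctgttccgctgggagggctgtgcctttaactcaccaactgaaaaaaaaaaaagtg
Lama5: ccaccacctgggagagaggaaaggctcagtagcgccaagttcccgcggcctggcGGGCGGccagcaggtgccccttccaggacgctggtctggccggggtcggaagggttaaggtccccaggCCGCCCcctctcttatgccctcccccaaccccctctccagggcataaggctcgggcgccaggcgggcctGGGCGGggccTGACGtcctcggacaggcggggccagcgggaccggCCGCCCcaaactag
Plod1: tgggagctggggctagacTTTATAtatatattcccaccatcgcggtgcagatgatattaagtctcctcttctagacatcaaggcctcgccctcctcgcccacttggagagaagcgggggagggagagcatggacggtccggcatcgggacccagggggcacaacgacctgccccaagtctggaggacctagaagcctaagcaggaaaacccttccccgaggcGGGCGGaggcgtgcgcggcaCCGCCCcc
P4ha2: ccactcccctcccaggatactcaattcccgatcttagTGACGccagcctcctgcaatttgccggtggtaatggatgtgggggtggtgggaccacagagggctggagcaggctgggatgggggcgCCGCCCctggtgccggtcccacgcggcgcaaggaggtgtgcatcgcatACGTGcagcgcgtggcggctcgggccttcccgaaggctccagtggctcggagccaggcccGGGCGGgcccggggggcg

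On either strand GGGCGG occurred 4 times in the Lama5 window, 2 times in that of Plod1, 2 times in that of P4ha2 and 1 time in that of Tnc. Promoter windows of full length were used for 23 of the 40 members, as 30 windows. Windows on chromosome 18, where Lox lies, were left out of these and of the windows over all genes. GGGCGG occurred in 17 of those 30 (56.67%), against 32.72% of 32817 windows over all genes. TATAAA occurred in 20% of the members' windows and 12.37% of all windows, ACGTG in 20% and 16.57%, TGACG in 16.67% and 17.75%, and GGAATG in 6.67% and 12.64%. TGANTCA was found in 0 of the 30 windows and 6.75% of all, and the CArG box in 3.33% and 1.47%. ACGTG can overlap TGACG by shared letters, and a match describes only the letters in the window.

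Levels were compared between genes per kilobase of exon, in CPM (counts scaled to a common library size after TMM) divided by the exon length in GENCODE M21. Over the 10 libraries Sparc, a collagen-binding matricellular protein, had the highest mean at 605 CPM per kb. The small proteoglycan biglycan (Bgn) followed at 128, fibronectin (Fn1) at 122, the laminin gamma-1 chain Lamc1 at 102, Thbs1 at 89.1, Nid1 at 86.8 and Lox at 81.6 CPM per kb. Biglycan stood high, whereas the related proteoglycans decorin (Dcn) and lumican (Lum) were close to absent. Lum had at most 3 counts in any library, Mfap4 at most 3 and Mfap5 at most 15, and these 3 were not tested. Dcn had 2 and 1 counts in DMSO at 1 day, 1 and 0 in BML-260 at 1 day, 18 and 10 in ISO, 15 and 11 in DMSO at 3 days and 3 and 6 in BML-260 at 3 days. It passed the count filter through the groups in which it was higher, and none of its fold changes is given in the text. Elastin (Eln) and the laminin chain Lama2 were also low, at 0.184 and 0.0716 CPM per kb.

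**Figure D1:**
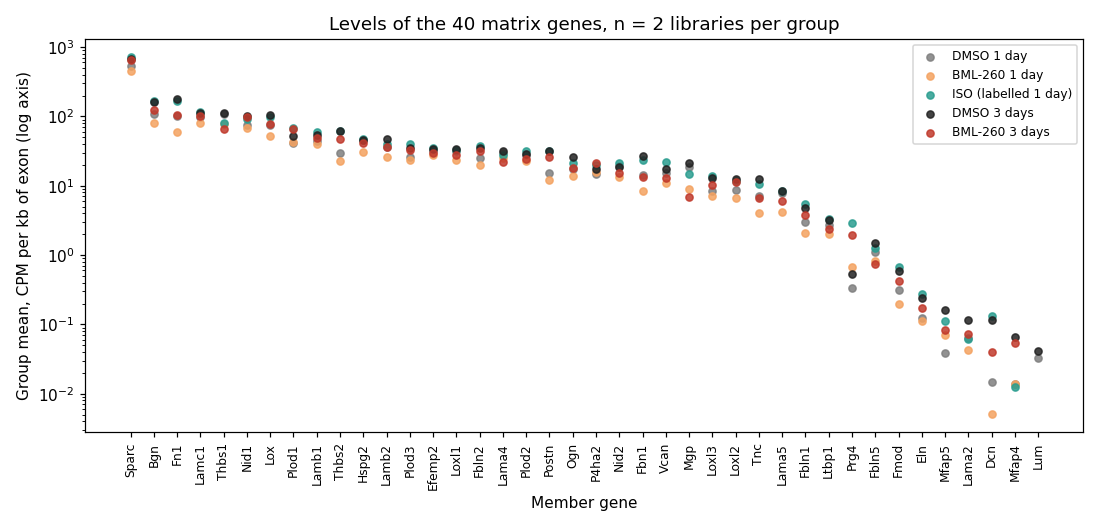
Group means of the 40 members in CPM per kb of exon on a log axis, ordered by the mean over all libraries, with 1 colour per group of 2 libraries. Sparc stands alone at the top at 605 CPM per kb, and Lum, Mfap4, Dcn, Lama2 and Mfap5 form the low end.

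The libraries held 16955918 to 21185675 counts. The 40 members took 0.775% ± 0.016 of all counts (SD, n = 2) in BML-260 at 1 day, 1.01% ± 0.019 in DMSO at 1 day, 1.07% ± 0.013 in BML-260 at 3 days, 1.32% ± 0.050 in ISO and 1.37% ± 0.023 in DMSO at 3 days. On the leading principal component of all tested genes (41.3% of the variance) the 4 libraries of DMSO and BML-260 at 1 day scored -28.6 to -23.2. Despite their label of 1 day, the ISO libraries scored 17.9 and 21.4, within the span of the DMSO and BML-260 libraries of 3 days (4.94 to 29.0). On the next component (20.1% of the variance) ISO scored -11.7 and -4.63 and the BML-260 libraries 18.2 to 18.5. DMSO scored -6.27 and -8.17 there at 1 day and -20.4 and -22.5 at 3 days. Because of the leading component, differences between ISO and the 1-day groups are given beside those with DMSO at 3 days. By the labels ISO and DMSO at 1 day share their time. Whether time in culture has a part in their differences was not tested. Markers of the labelled cell type were found at unequal levels. Over the libraries the adipocyte markers Fabp4 and Adipoq had 4295 to 10560.5 and 438 to 1401 CPM. Among brown adipocyte markers Cox7a1 had 317 to 368 CPM, Cidea 128 to 242, Kcnk3 97.8 to 218 and Ppargc1a 34.4 to 51.4. Lower were Ucp1 at 5.10 to 32.8, Elovl3 at 8.61 to 33.1, Prdm16 at 9.01 to 20.1 and Cox8b at 8.79 to 14.6 CPM. Dio2 had at most 2 counts. The proliferation markers Mki67 and Top2a had 396 to 533 and 500 to 651 CPM. Since these are bulk libraries, fewer cells of a type and less RNA per cell cannot be told apart.

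After 1 day of BML-260 the non-collagen matrix was lower across nearly every role. Of the 37 tested members 28 were lower than in DMSO and 1, Prg4, was higher (edgeR quasi-likelihood test, Benjamini-Hochberg adjusted p under 0.05). Over all 15212 tested genes 17.9% were called, 9.32% higher and 8.62% lower. Both treated libraries lay below both controls for 31 members and above them for 3, against 27.5% and 28.6% of all tested genes. The members' median log2 fold change was -0.41, against -0.001 over all tested genes. By role, the lower members numbered 6 of 6 adhesive glycoproteins, 5 of 7 elastic fibre proteins, 4 of 4 lysyl oxidases, 3 of 6 proteoglycans, 8 of 9 basement membrane proteins, Mgp, and 1 of 4 collagen hydroxylases.

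Among the adhesive proteins, Fn1 (chr1:71585520-71653200, GRCm38), which encodes fibronectin, had 1157 and 1221 CPM in DMSO and 726 and 671 CPM in BML-260 at 1 day. Both treated libraries lay far below both controls, a 1.7-fold fall (log2 -0.77 ± 0.05 SE, edgeR adjusted p = 7.0e-12). Tenascin-C, encoded by Tnc (chr4:63959785-64047015), is a matricellular protein of remodelling tissue, and its transcript went from 52.2 and 56.9 CPM to 30.9 and 32.1 CPM. Its 1.73-fold fall (log2 -0.79 ± 0.08 SE, adjusted p = 9.1e-08) was of about the same size as that of Fn1. Thbs1 (chr2:118111876-118127133), thrombospondin 1, an activator of latent TGF-beta, went from 638 and 674 CPM to 481 and 459 CPM (log2 -0.48 ± 0.05 SE, adjusted p = 6.1e-08). Thbs2 had 202 and 217 CPM in DMSO and 161 and 154 CPM with BML-260 (log2 -0.42 ± 0.07 SE, adjusted p = 4.5e-05). The groups did not overlap for any of these 4 genes.

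The smaller falls in this role were those of Postn and Sparc. Periostin (Postn), a matricellular protein that binds collagen and fibronectin, had 135 and 128 CPM in DMSO and 115 and 96.9 CPM in BML-260 (log2 -0.31 ± 0.06 SE, adjusted p = 6.3e-04). Its call rested on 1 library: without BML-260 replicate 2 the log2 fold change was -0.19 and the edgeR adjusted p 0.056. Sparc, the most abundant member, went from 2019 and 1959 CPM to 1710.1 and 1728 CPM, a 1.16-fold fall (log2 -0.21 ± 0.04 SE, adjusted p = 8.5e-04).

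In the elastic fibre role fibrillin-1, the backbone of microfibrils, changed most among the abundant members. Fbn1 (chr2:125300594-125507993) had 173 and 175 CPM in DMSO and 107 and 98.6 CPM in BML-260, a 1.69-fold fall without overlap (log2 -0.76 ± 0.05 SE, adjusted p = 1.7e-10). Of the Fbn1 exon bases 20.1% lie under the annotated gene Gm9913, and the counting is not stated to use strand. Fbln1, a fibulin of microfibrils and basement membranes, went from 12.2 and 13.9 CPM to 9.87 and 8.34 CPM (log2 -0.52 ± 0.12 SE, adjusted p = 0.0028), a call lost without BML-260 1 day replicate 2 (log2 -0.40, edgeR adjusted p = 0.073) or DMSO 1 day replicate 2 (-0.42, 0.081). Fbln2 (-0.33), Efemp2 (-0.20) and the latent TGF-beta binding protein Ltbp1 (-0.42) were also lower on the log2 scale, though the Efemp2 call was lost without BML-260 1 day replicate 2 (log2 -0.15, edgeR adjusted p = 0.11) or DMSO 1 day replicate 2 (-0.17, 0.095). Fbln5 (-0.41, edgeR adjusted p = 0.07) and Eln (-0.17, 0.82) did not pass the threshold.

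All 4 lysyl oxidases were lower. Lox itself had 348 and 367 CPM in DMSO and 246 and 250.4 CPM in BML-260 (log2 -0.52 ± 0.05 SE, edgeR adjusted p = 1.3e-08), and the groups did not overlap. Its paralogs had log2 changes of -0.41 for Loxl1, -0.41 for Loxl2 and -0.28 for Loxl3. The Loxl1 call was lost without DMSO 1 day replicate 2 (log2 -0.29, edgeR adjusted p = 0.053). Loxl3 shares 11.6% of its exon bases with Htra2, and its call was lost without BML-260 1 day replicate 2 (log2 -0.25, edgeR adjusted p = 0.11), DMSO 1 day replicate 1 (-0.28, 0.056) or DMSO 1 day replicate 2 (-0.27, 0.12).

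Among proteoglycans, Bgn went from 660.1 and 668 CPM to 488 and 496 CPM (log2 -0.43 ± 0.05 SE, edgeR adjusted p = 2.1e-07). Versican (Vcan), the large hyaluronan-binding proteoglycan, changed by -0.47 ± 0.06 SE on the log2 scale. Osteoglycin (Ogn), a small leucine-rich proteoglycan, had 45.9 and 43.3 CPM in DMSO and 39.3 and 31.8 CPM in BML-260 (log2 -0.33 ± 0.08 SE, adjusted p = 0.0047), and the call was lost without BML-260 1 day replicate 2 (log2 -0.18, edgeR adjusted p = 0.21) or DMSO 1 day replicate 1 (-0.29, 0.052). Fmod, with 9 to 19 counts per library in these groups, did not pass (log2 -0.69 ± 0.38 SE, adjusted p = 0.24).

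Basement membrane genes were lower to unequal degrees. Lama5 (chr2:180176373-180225859), the alpha-5 laminin chain, went from 82.8 and 93.5 CPM to 46.2 and 49 CPM, a 1.85-fold fall (log2 -0.89 ± 0.07 SE, edgeR adjusted p = 6.7e-10). Hspg2 (chr4:137468769-137570630), whose product perlecan is the main heparan sulfate proteoglycan of basement membranes, went from 612 and 685 CPM to 444 and 421 CPM (log2 -0.59 ± 0.05 SE, adjusted p = 4.8e-09). Neither gene's groups overlapped. Lama4 (chr10:38965515-39110188), the laminin alpha-4 chain, changed little in comparison, from 361 and 347 CPM to 300.3 and 303 CPM (log2 -0.23 ± 0.05 SE, adjusted p = 6.4e-04). Lamc1, the gamma chain shared by most laminins, went from 793 and 805 CPM to 682 and 668 CPM (log2 -0.24 ± 0.04 SE, adjusted p = 1.8e-04). The log2 values of the other lower members were -0.52 for Nid2, -0.46 for Lamb2, -0.16 for Lamb1 and -0.15 for Nid1. The Lamb1 call was lost without BML-260 1 day replicate 2 (log2 -0.15, edgeR adjusted p = 0.071) or DMSO 1 day replicate 1 (-0.14, 0.067), and that of Nid1 without BML-260 1 day replicate 2 (log2 -0.12, edgeR adjusted p = 0.18) or DMSO 1 day replicate 2 (-0.12, 0.2). Lama2, at 10 to 23 counts, did not pass (log2 -0.57 ± 0.42 SE, adjusted p = 0.4).

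Mgp (chr6:136872435-136875823), matrix Gla protein, which keeps soft tissue from calcifying, showed the largest fall of any member above 10 CPM. It had 21 and 23.1 CPM in DMSO and 9.93 and 11.4 CPM in BML-260, a 2.07-fold difference (log2 -1.05 ± 0.12 SE, edgeR adjusted p = 5.6e-07). Among the hydroxylases only Plod2 was lower (-0.26 ± 0.06 SE), while Plod1 had 279 and 274 CPM and 287 and 287 CPM, and P4ha2 94 and 90.8 CPM and 102 and 95 CPM. Those last changes were 0.05 (95% interval -0.04 to 0.14) for Plod1 and 0.09 (-0.02 to 0.19) for P4ha2 on the log2 scale, and neither passed the threshold. Prg4 (chr1:150449412-150466165), which encodes the lubricating glycoprotein lubricin, went the opposite way from 1.16 and 1.72 CPM to 2.76 and 2.9 CPM (log2 0.96 ± 0.24 SE, adjusted p = 0.0059). Its call was lost without DMSO 1 day replicate 1 (log2 0.72, edgeR adjusted p = 0.083). Of the Prg4 exon bases 4.77% lie under Tpr.

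After 3 days of BML-260 the picture was again one of lower matrix transcripts, with Prg4 and 2 hydroxylases, Plod1 and P4ha2, higher. Of the 37 tested members 26 were lower than in DMSO at 3 days and 3 were higher. Over all tested genes 35.5% were called, 17.3% higher and 18.3% lower, and the medians were -0.36 for the members and -0.016 for all tested genes. Groups were separate for all 37, with 34 members lower and 3 higher, against 35.6% and 32.2% of all tested genes. The 2 times share no library, and 24 members were lower at both, which is 85.7% of the 28 at 1 day and 92.3% of the 26 at 3 days. Over all tested genes 850 were lower at both, which is 64.8% of the 1311 at 1 day and 30.6% of the 2782 at 3 days. Among the 24 members, the 3-day call of Efemp2 (log2 -0.20) was lost without DMSO 3 days replicate 1. That of Lamb1 (log2 -0.14) was lost without BML-260 3 days replicate 2, DMSO 3 days replicate 1 or DMSO 3 days replicate 2. Both genes also had calls at 1 day that were lost without single libraries, as given above. Fbln2, Loxl2, Nid1 and Sparc were called at 1 day but not at 3 days, and Dcn and Fbln5 at 3 days but not at 1 day. For none of these 6, nor for P4ha2 (log2 0.21 ± 0.07 SE, adjusted p = 0.056), did the difference between the times, tested below, pass the threshold. Dcn, with the few counts given above, is 1 of the 26, and its call at an edgeR adjusted p of 0.048 was lost with no filter on low counts (0.070) and without any 1 of the 4 libraries compared (0.091 to 0.26).

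Fn1 had 2029 and 2115 CPM in DMSO and 1219 and 1215 CPM in BML-260 at 3 days, a 1.7-fold fall (log2 -0.77 ± 0.05 SE, edgeR adjusted p = 9.9e-13). The treated libraries of 3 days lay within the range of the DMSO libraries of 1 day, 1157 and 1221 CPM. Tnc had 86.5 and 105 CPM in DMSO against 50.01 and 53.5 CPM (log2 -0.89 ± 0.07 SE, adjusted p = 2.1e-10), and its treated libraries also overlapped those of DMSO at 1 day. Thbs1 went from 668 and 711 CPM to 397 and 413 CPM (log2 -0.77 ± 0.05 SE, adjusted p = 2.5e-12), below its level in any library of DMSO. Postn (-0.29) and Thbs2 (-0.36) were lower on the log2 scale, with Postn at 267 and 283 CPM against 224 and 227 CPM and Thbs2 at 399 and 452 CPM against 326 and 336 CPM. Sparc, at 2572 and 2557 CPM and 2468 and 2395 CPM, did not pass (log2 -0.08 ± 0.04 SE, adjusted p = 0.16, 95% interval -0.16 to 0.01).

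Fbn1 had 309 and 337 CPM in DMSO and 157 and 167 CPM in BML-260, a 1.99-fold fall (log2 -0.99 ± 0.05 SE, edgeR adjusted p = 3.9e-14). Fbln5, a fibulin needed for elastic fibre assembly, went from 9.46 and 11.2 CPM to 5.05 and 5.08 CPM (log2 -1.03 ± 0.15 SE, adjusted p = 5.6e-06). Fbln1 was lower by less, at 20.8 and 20.7 CPM against 15.8 and 17.3 CPM (log2 -0.33 ± 0.10 SE, adjusted p = 0.011), and its call was lost with DESeq2's Wald test (adjusted p = 0.069) and without BML-260 3 days replicate 1 (log2 -0.26, edgeR adjusted p = 0.11), DMSO 3 days replicate 1 (-0.29, 0.085) or DMSO 3 days replicate 2 (-0.30, 0.079). Lox went from 497 and 518 CPM to 369 and 376 CPM (log2 -0.45 ± 0.05 SE, adjusted p = 2.0e-08), without overlap. Loxl1 (-0.29) and Loxl3 (-0.35) passed and Loxl2 (-0.14, edgeR adjusted p = 0.077) did not. Loxl1 no longer passed with DESeq2's Wald test (adjusted p = 0.14) or without BML-260 3 days replicate 2 (log2 -0.19, edgeR adjusted p = 0.14) or DMSO 3 days replicate 2 (-0.16, 0.21), nor Loxl3 without DMSO 3 days replicate 2 (log2 -0.21, edgeR adjusted p = 0.067).

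Bgn had 965 and 1002 CPM in DMSO and 745 and 749.9 CPM in BML-260 (log2 -0.40 ± 0.05 SE, edgeR adjusted p = 1.8e-07), and Ogn 63.7 and 69.1 CPM and 44.3 and 49.1 CPM (log2 -0.51 ± 0.07 SE, adjusted p = 4.8e-06). Vcan (-0.42) was also lower on the log2 scale. In the basement membrane, Lama4 went from 396 and 375 CPM to 266 and 263 CPM (log2 -0.54 ± 0.05 SE, adjusted p = 4.5e-10) and Lama5 from 100.1 and 92.8 CPM to 73.3 and 64.7 CPM (log2 -0.49 ± 0.06 SE, adjusted p = 1.0e-06), both with separate groups. Hspg2 was nearly back at its control, at 662 and 658 CPM in DMSO and 614 and 572 CPM in BML-260 (log2 -0.16 ± 0.05 SE, adjusted p = 0.016), and this small difference no longer passed without BML-260 3 days replicate 2 (log2 -0.11, edgeR adjusted p = 0.22), DMSO 3 days replicate 1 (-0.12, 0.17) or DMSO 3 days replicate 2 (-0.13, 0.14). Lamc1, at 931 and 914 CPM against 873 and 824 CPM, changed by -0.12 ± 0.04 SE on the log2 scale, with an edgeR adjusted p of 0.03 that rose to 0.064 with DESeq2 size factors. Its call was also lost with DESeq2's Wald test (adjusted p = 0.052) and without BML-260 3 days replicate 2 (log2 -0.08, edgeR adjusted p = 0.29), DMSO 3 days replicate 1 (-0.08, 0.32) or DMSO 3 days replicate 2 (-0.10, 0.17).

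Mgp again fell most, from 22.6 and 27.5 CPM to 6.91 and 9.61 CPM, a 3.02-fold difference (log2 -1.59 ± 0.12 SE, edgeR adjusted p = 1.0e-10). The members that rose were Prg4, Plod1 and P4ha2. Prg4 went from 1.98 and 2.63 CPM to 8.17 and 8.25 CPM, 3.56-fold higher (log2 1.83 ± 0.17 SE, adjusted p = 4.5e-09). Plod1 (chr4:147909753-147936767), a lysyl hydroxylase that prepares collagen for cross-linking, had 353 and 350.3 CPM in DMSO and 456 and 442 CPM in BML-260 (log2 0.35 ± 0.04 SE, adjusted p = 2.1e-07). P4ha2 (chr11:54100095-54131665), a prolyl hydroxylase subunit that lets collagen chains form a stable triple helix, had 110.2 and 107 CPM and 135 and 133 CPM (log2 0.30 ± 0.05 SE, adjusted p = 1.7e-05). The groups of all 3 genes were separate. Plod2 was lower (-0.26 ± 0.05 SE) and Plod3 did not pass (-0.09 ± 0.05 SE). The Plod2 call was lost without DMSO 3 days replicate 1 (log2 -0.18, edgeR adjusted p = 0.058). Of the Plod3 exon bases 11.9% lie under Mir702,Znhit1.

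**Figure D2:**
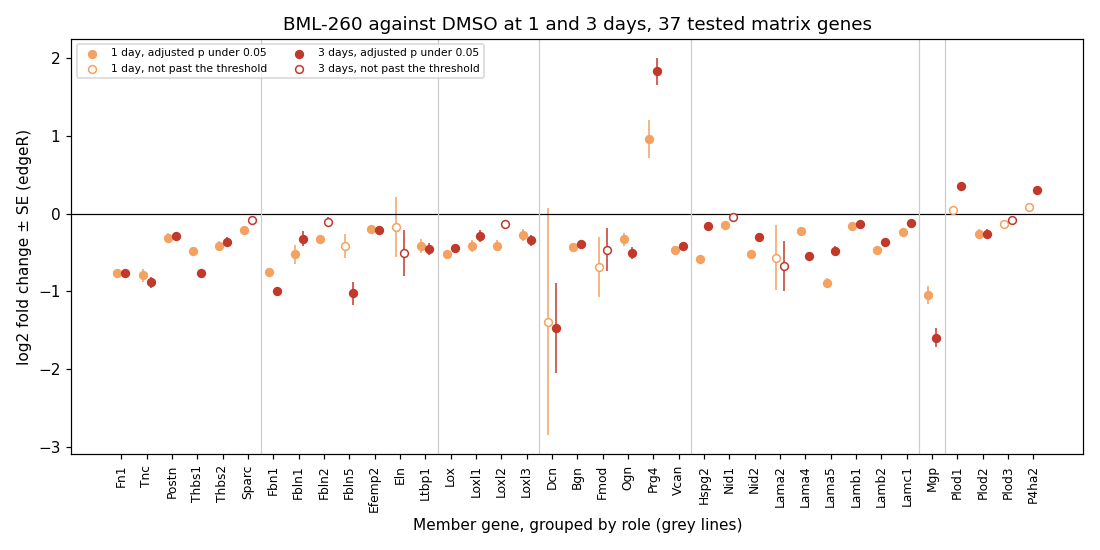
log2 fold change ± SE of BML-260 against DMSO for the 37 tested members at 1 day (orange) and 3 days (red), with filled points for an edgeR adjusted p under 0.05 and grey lines between roles. Most points lie between 0 and -1, with Prg4 far above 0 and Mgp at -1.05 and -1.59 and with the widest bars for Dcn, which had at most 15 counts in these groups.

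The 2 BML-260 effects were then compared with each other by the difference between them (3 days minus 1 day) in the same fit. It passed the threshold for 6 members, 3 in each direction, against 8.44% of all tested genes (3.93% positive and 4.51% negative). The split between directions depended on the scaling, being 6 positive and 2 negative with DESeq2 size factors. Hspg2 (0.43 ± 0.07 SE, edgeR adjusted p = 3.7e-04) and Plod1 (0.30 ± 0.06 SE, 0.0022) passed under every alternative run. For Hspg2 this means a fall of 1.5-fold at 1 day and of 1.11-fold at 3 days. Lama5 had a difference of 0.40 ± 0.09 SE (edgeR adjusted p = 0.007), its fall being 1.85-fold and then 1.4-fold.

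Thbs1 (-0.29 ± 0.07 SE, edgeR adjusted p = 0.0086), Lama4 (-0.31 ± 0.06 SE, 0.0027) and Fbn1 (-0.24 ± 0.07 SE, 0.044) were lowered more, against DMSO of the same time, at 3 days than at 1 day. The BML-260 mean fell between the times for Thbs1 (470 to 405 CPM) and Lama4 (302 to 265 CPM). For Fbn1 it rose from 103 to 162 CPM, while the DMSO mean rose from 174 to 323 CPM. The laminin alpha chains thus went apart, Lama5 being lowered more at 1 day and Lama4 more at 3 days. The Lama4 difference was lost without DMSO 3 days replicate 1 (log2 -0.25, edgeR adjusted p = 0.056), and that of Lama5 without BML-260 3 days replicate 1 (0.31, 0.067) or DMSO 1 day replicate 2 (0.31, 0.068). The Thbs1 difference was lost without BML-260 3 days replicate 1 (-0.26, 0.054) or DMSO 3 days replicate 2 (-0.21, 0.12), and that of Fbn1 with DESeq2 size factors (adjusted p = 0.060), DESeq2's Wald test (0.094) and a fit of the compared groups only (0.068). The Fbn1 difference was also lost without BML-260 1 day replicate 1 (log2 -0.18, edgeR adjusted p = 0.22), BML-260 3 days replicate 1 (-0.19, 0.19), DMSO 1 day replicate 1 (-0.23, 0.092), DMSO 1 day replicate 2 (-0.24, 0.099), DMSO 3 days replicate 1 (-0.27, 0.056) or DMSO 3 days replicate 2 (-0.15, 0.33). For Prg4 (0.87, 95% interval 0.23 to 1.51) and Mgp (-0.55, -0.91 to -0.18) the difference did not pass. Fn1 had a difference of -0.00012 with an interval of -0.14 to 0.14.

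**Figure D3:**
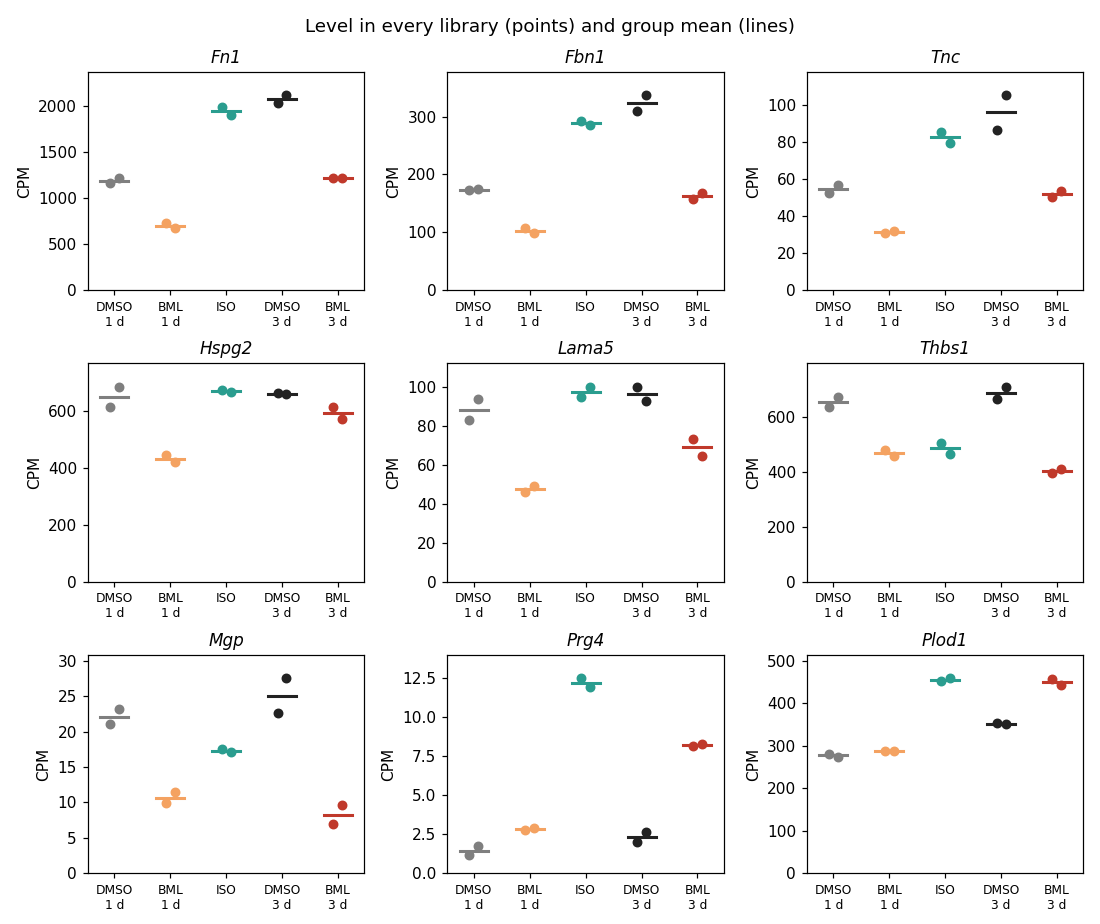
CPM of 9 members in each of the 10 libraries (points) with the mean of each group of 2 libraries (lines), on axes that start at 0. Fn1, Fbn1 and Tnc are lower with BML-260 at both times and higher in ISO and in DMSO at 3 days than in DMSO at 1 day, whereas Prg4 is high in ISO and in BML-260 at 3 days, and Plod1 likewise.

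In the DMSO controls themselves the matrix rose between day 1 and day 3. Of the 37 tested members 29 were higher at 3 days and 0 were lower by edgeR's test (0 lower at an unadjusted p under 0.05 and 0 by DESeq2's Wald test), against 34.9% of all tested genes called (18.1% higher, 16.8% lower). DESeq2's Wald test called 22 members higher. Under at least 1 alternative the calls of Fbln5, Eln, Ltbp1, Dcn, Fmod, Prg4, Vcan, Lama2 and Lama4 were lost. Dcn, among the 29, passed the count filter through its high groups. The median log2 fold change was 0.42 for the members and 0.0071 for all tested genes. Groups were separate for 30 members higher and 0 lower, where all tested genes had 34.4% and 32.2%. The label of each DMSO group gives only the time with the solvent, so time in culture and time with DMSO cannot be told apart.

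Postn and Thbs2 rose most among the members above 10 CPM. Postn had 135 and 128 CPM at 1 day and 267 and 283 CPM at 3 days, a 2.09-fold rise (log2 1.06 ± 0.06 SE, edgeR adjusted p = 2.1e-13). Thbs2 went from 202 and 217 CPM to 399 and 452 CPM (log2 1.02 ± 0.06 SE, adjusted p = 2.7e-12). For Fbn1 (log2 0.90 ± 0.05 SE, adjusted p = 3.8e-13), Tnc (log2 0.81 ± 0.07 SE, adjusted p = 1.4e-09) and Fn1 (log2 0.80 ± 0.05 SE, adjusted p = 5.3e-13) the levels given above likewise rose without overlap. Fbln1 (0.67) went from 12.2 and 13.9 CPM to 20.8 and 20.7 CPM, Loxl3 (0.62) from 38.8 and 39.4 CPM to 55.8 and 64.6 CPM and Ogn (0.57) from 45.9 and 43.3 CPM to 63.7 and 69.1 CPM, with log2 values in parentheses. Those that did not pass were Thbs1 (0.07), Efemp2 (0.10), Loxl1 (0.10), Hspg2 (0.02), Nid2 (-0.03), Lama5 (0.13), Mgp (0.18) and Plod2 (0.08). Prg4, at 1.16 and 1.72 CPM and then 1.98 and 2.63 CPM, passed (log2 0.66 ± 0.25 SE, adjusted p = 0.04) but not with DESeq2's Wald test (adjusted p = 0.086), with a fit of the compared groups only (0.054) or without DMSO 1 day replicate 1 (log2 0.42, edgeR adjusted p = 0.3) or DMSO 3 days replicate 2 (0.44, 0.32).

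ISO libraries carried more matrix transcripts than DMSO at 1 day. Of the 37 tested members 28 were higher and 2, Thbs1 and Mgp, were lower, where 41.7% of all tested genes were called (21.4% higher and 20.3% lower). The median log2 fold change was 0.43 for the members and -0.0036 for all tested genes. Groups were separate for 31 members higher and 2 lower, against 34.5% and 34.3% of all tested genes. This comparison, the 1-day BML-260 comparison and the DMSO time comparison all use the same 2 DMSO libraries of 1 day, so their values stand side by side and their likeness is not a result.

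Prg4 had the largest rise, from 1.16 and 1.72 CPM in DMSO to 12.5 and 11.9 CPM in ISO, 8.37-fold (log2 3.07 ± 0.18 SE, edgeR adjusted p = 7.1e-13). Postn reached 287 and 268 CPM (log2 1.08 ± 0.06 SE, adjusted p = 1.2e-13) and Thbs2 474 and 399 CPM (log2 1.06 ± 0.06 SE, adjusted p = 7.4e-13), about the level of DMSO at 3 days. Fbn1 had 293 and 286 CPM (log2 0.74 ± 0.05 SE, adjusted p = 9.1e-12), Fn1 1987 and 1899 CPM (log2 0.71 ± 0.05 SE, adjusted p = 2.9e-12) and Fbln1 25.2 and 22 CPM (log2 0.85 ± 0.10 SE, adjusted p = 1.7e-07). Plod1 had 453 and 459 CPM (log2 0.72 ± 0.04 SE, adjusted p = 5.9e-13) and Loxl3 69.5 and 59.3 CPM (log2 0.71 ± 0.07 SE, adjusted p = 1.4e-08). No ISO library overlapped the DMSO libraries of 1 day for these 8 genes. All 4 collagen hydroxylases were called higher, as were the 6 tested proteoglycans (Dcn, which passed the filter through its high groups, among them), 6 of 7 elastic fibre proteins, 5 of 6 adhesive glycoproteins, 3 of 4 lysyl oxidases and 4 of 9 basement membrane proteins.

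Of these 28 calls 6 were lost under at least 1 alternative that gave an adjusted p. Dcn had an adjusted p under 8 alternatives, where the other called members had 10. DESeq2's Wald test called 26 members higher. Plod2 (0.19) no longer passed with upper-quartile scaling (adjusted p = 0.053) or without DMSO 1 day replicate 2 (log2 0.15, edgeR adjusted p = 0.092) or ISO replicate 1 (0.11, 0.17). Nid2 (0.17) no longer passed with upper-quartile scaling (0.059) or without DMSO 1 day replicate 1 (log2 0.13, edgeR adjusted p = 0.091) or ISO replicate 1 (0.15, 0.059). Efemp2 (0.13) was lost with upper-quartile scaling (0.22), DESeq2's Wald test (0.079) and a fit of the compared groups only (0.069), and without DMSO 1 day replicate 1 (log2 0.10, edgeR adjusted p = 0.23) or ISO replicate 1 (0.09, 0.24). The Ogn call (0.28) was lost without DMSO 1 day replicate 2 (log2 0.24, edgeR adjusted p = 0.06) or ISO replicate 1 (0.23, 0.055), that of Eln (1.15) without ISO replicate 2 (log2 0.63, edgeR adjusted p = 0.24) and that of Ltbp1 (0.29) without ISO replicate 1 (log2 0.16, edgeR adjusted p = 0.16). Values in parentheses after a gene are log2 fold changes.

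Thbs1 and Thbs2 went opposite ways in ISO. Thbs1 had 506 and 467 CPM in ISO against 638 and 674 CPM in DMSO at 1 day (log2 -0.43 ± 0.05 SE, edgeR adjusted p = 5.4e-08), while Thbs2 rose. Mgp had 17.5 and 17.1 CPM in ISO (log2 -0.35 ± 0.11 SE, adjusted p = 0.012), and its call was lost with DESeq2's Wald test (adjusted p = 0.051) and on leaving out DMSO replicate 2 (log2 -0.28, edgeR adjusted p = 0.13) or ISO replicate 2 (-0.34, 0.070). Hspg2 (0.05, 95% interval -0.05 to 0.15) and Lama4 (-0.07, -0.16 to 0.03) did not pass.

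**Figure D4:**
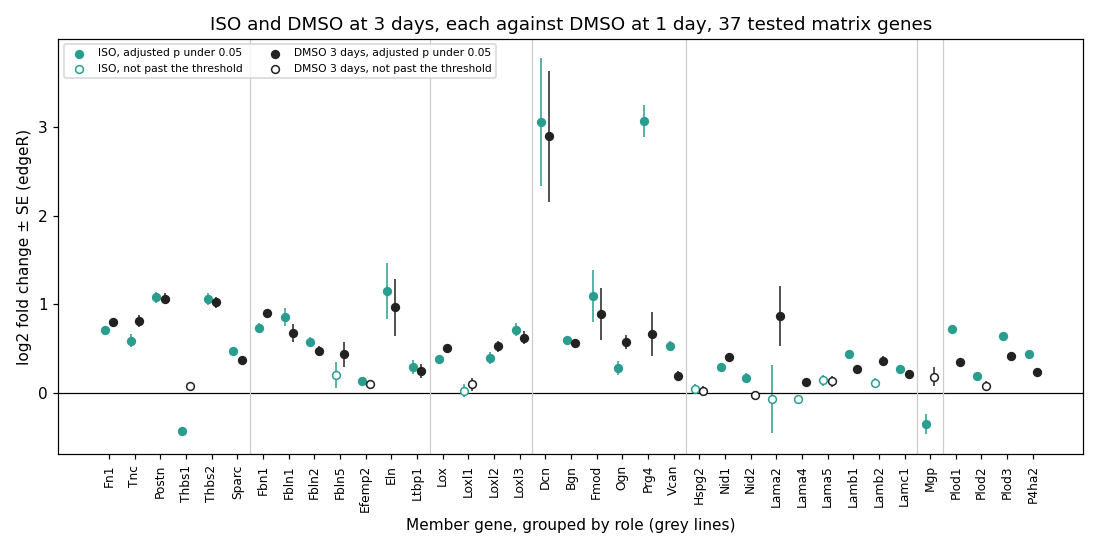
log2 fold change ± SE of ISO (green) and of DMSO at 3 days (black), each against the same DMSO libraries of 1 day, for the 37 tested members, with filled points for an edgeR adjusted p under 0.05. Most members lie above 0 in both; Thbs1 and Mgp lie below 0 in ISO, and Prg4 is at 3.07 in ISO and 0.66 in DMSO at 3 days.

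Set against DMSO at 3 days, ISO had members called in both directions: 7 were higher and 9 lower, against 19.9% of all tested genes called (10.6% higher, 9.24% lower), with a members' median of 0.03. Groups were separate for 12 members higher and 12 lower, against 29.5% and 29.7% of all tested genes. The count was 9 in all without DMSO 3 days replicate 2, which ended the calls of Tnc (-0.06), Fbn1 (-0.08), Lox (-0.09), Ogn (-0.22), Lama2 (-0.84), Lamb1 (0.16) and Mgp (-0.38). Without DMSO 3 days replicate 1 the calls of Lox (-0.15), Nid2 (0.19), Lama2 (-1.01) and Lama4 (-0.14) were lost, without ISO replicate 1 that of Lamb1 (0.13) and without ISO replicate 2 those of Tnc (-0.17), Fbn1 (-0.14), Lox (-0.07), Ogn (-0.23), Lama2 (-0.59) and Lama4 (-0.15), with log2 values in parentheses. DESeq2 size factors ended the calls of Lox (adjusted p = 0.061) and Lama2 (0.051), and DESeq2's Wald test those of Tnc (0.084) and Lox (0.077). Prg4 had the largest difference, 5.28-fold higher in ISO (log2 2.40 ± 0.16 SE, edgeR adjusted p = 1.4e-10). Plod1 (0.37), Vcan (0.34), Plod3 (0.22), Nid2 (0.20), P4ha2 (0.20) and Lamb1 (0.17) were the other higher members on the log2 scale. The lower ones were Lama2 (-0.94), Mgp (-0.54), Thbs1 (-0.50), Ogn (-0.29), Lamb2 (-0.25), Tnc (-0.22), Lama4 (-0.19), Fbn1 (-0.16) and Lox (-0.13). For Fn1 (-0.09, 95% interval -0.19 to 0.00) and Postn (0.01, -0.10 to 0.13) the difference did not pass.

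Compared directly with ISO, BML-260 at 1 day was lower for 35 of the 37 tested members and higher for 0 by edgeR's test (0 at an unadjusted p under 0.05 and 0 by DESeq2's Wald test), against 44.4% of all tested genes called (21.6% higher and 22.8% lower), with a members' median of -0.71. Groups were separate for 35 lower and 0 higher members, against 35.5% and 34.9% of all tested genes. DESeq2's Wald test called 34 members lower. Dcn, which passed the count filter through its high groups, is among the 35 called by edgeR. It had an adjusted p under 8 alternatives, where the other called members had 10. Fbn1 (-1.49 ± 0.05 SE), Fn1 (-1.48 ± 0.05 SE) and Thbs2 (-1.47 ± 0.06 SE) showed log2 differences of nearly the same size. Thbs1 (-0.05, 95% interval -0.15 to 0.05) and Lama2 (-0.50, -1.36 to 0.37) were the members that did not pass.

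The ISO comparison with DMSO at 1 day and the BML-260 comparison at 3 days use no library in common. Of the 28 members higher in ISO, 18 (64.3%) were lower with BML-260 at 3 days, which is 69.2% of the 26 lowered there. Dcn, which passed the count filter through its high groups, is among the 18, so its place there is no result. Over all tested genes 352 did so, 10.8% of the 3253 higher in ISO and 12.7% of the 2782 lower with BML-260. Prg4, Plod1 and P4ha2 were higher in both, and Thbs1 and Mgp were lower in both. Prg4 thus read 12.5 and 11.9 CPM in ISO and 8.17 and 8.25 CPM in BML-260 at 3 days, with 1.16 to 2.63 CPM in the 4 DMSO libraries.

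Other matrix genes outside the 40 were read from 7 lists. Of 19 tested matricellular and adhesive glycoproteins, 13 were lower and 0 higher with BML-260 at 1 day (median log2 -0.47) and 15 lower and 0 higher at 3 days (-0.73), while 9 were higher and 2 lower in ISO and 13 higher and 3 lower in DMSO at 3 days, both against DMSO at 1 day. The called shares were 68.4%, 78.9%, 57.9% and 84.2% in that order, beside 17.9%, 35.5%, 41.7% and 34.9% of all tested genes. Sparcl1, the closest relative of Sparc, had 83.6 ± 1.22 CPM (SD, n = 2) in DMSO and 44.9 ± 2.32 in BML-260 at 3 days (log2 -0.89 ± 0.06 SE). Ctgf, a matricellular target of TGF-beta and YAP, had 73.2 ± 10.2 and 35.3 ± 0.344 CPM (-1.05 ± 0.08 SE). Tgfbi, a TGF-beta induced adhesive protein, changed by -0.62 with BML-260 at 1 day and by 0.84 in ISO on the log2 scale.

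Among 15 further elastic fibre genes 10 were lower and 0 higher with BML-260 at 1 day (median -0.38) and 6 lower and 0 higher at 3 days (-0.30). Ltbp2, a microfibril-bound protein, had log2 changes of -0.55 and -0.88 at the 2 times. In ISO 5 of the 15 were higher and 3 lower, and in DMSO at 3 days 6 and 3. In the order BML-260 at 1 and 3 days, ISO and DMSO at 3 days, 66.7%, 40%, 53.3% and 60% were called. The shares of all tested genes were 17.9%, 35.5%, 41.7% and 34.9%. Of 16 other proteoglycan cores 8 were lower and 0 higher at 1 day, and 8 lower and 2 higher at 3 days (medians -0.34 and -0.32). Prelp, a basement membrane anchoring proteoglycan, changed by -0.94 with BML-260 at 3 days and by -1.12 in ISO on the log2 scale. For this list ISO gave 3 higher and 3 lower, and DMSO at 3 days 3 higher and 4 lower. Its called shares in the same order were 50%, 62.5%, 37.5% and 43.8%, the one in ISO below that of all tested genes.

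Of 33 tested enzymes that build glycosaminoglycan chains, 1 was higher and 8 lower with BML-260 at 1 day, 6 and 6 at 3 days, 9 and 7 in ISO, and 7 and 7 in DMSO at 3 days, with BML-260 medians of -0.07 and -0.13. The called shares were 27.3%, 36.4%, 48.5% and 42.4%, beside 17.9%, 35.5%, 41.7% and 34.9% of all tested genes. Of 15 collagen folding and hydroxylation genes, 1 was higher and 7 lower with BML-260 at 1 day, 3 higher and 4 lower at 3 days, 9 higher and 0 lower in ISO and 7 higher and 0 lower in DMSO at 3 days. Of this list 53.3%, 46.7%, 60% and 46.7% were called, beside the same shares of all tested genes. P4ha1, the paralog of P4ha2, had 444 ± 16 CPM in DMSO and 546 ± 5.13 in BML-260 at 3 days (log2 0.30 ± 0.05 SE). Pcolce, which speeds procollagen cleavage, went the other way (-0.39 ± 0.05 SE).

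Of 4 other laminin chains tested, 1 (Lamb3) was lower and 0 higher with BML-260 at either time, and 2 were higher and 0 lower in ISO and in DMSO at 3 days. That is 25% at each BML-260 time and 50% in ISO and DMSO at 3 days. Of all tested genes 17.9%, 35.5%, 41.7% and 34.9% were called. Among 29 regulators of matrix genes, 8 were lower and 0 higher with BML-260 at 1 day, 7 lower and 3 higher at 3 days, 10 higher and 4 lower in ISO and 10 higher and 2 lower in DMSO at 3 days. The called shares of 27.6%, 34.5%, 48.3% and 41.4% stand beside 17.9%, 35.5%, 41.7% and 34.9% of all tested genes. The mesenchymal transcription factor gene Prrx1 changed by -0.41 and -0.37 at the 2 BML-260 times, and Zeb2 by -0.36 and -0.42, on the log2 scale. Where 0 genes of one of these lists were called in a direction by edgeR, 0 were called by DESeq2's Wald test and 0 had an unadjusted edgeR p under 0.05, except for 1 regulator, higher with BML-260 at 1 day.

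Of the markers of other mesenchymal cells, those of preadipocytes and fibroblasts had a lower summed level with BML-260 and a higher one in ISO and in DMSO at 3 days, and those of smooth muscle and pericytes a lower one with BML-260. Summed over 10 preadipocyte and fibroblast markers, the level was 131 and 142 CPM in DMSO and 106 and 100.3 in BML-260 at 1 day, 213 and 191 in ISO, and 214 and 235 in DMSO and 149 and 148 in BML-260 at 3 days. Of 9 tested, 3 were lower with BML-260 at 1 day and 6 at 3 days, and 6 were higher in ISO and in DMSO at 3 days. Cd34 had at most 7 counts. The 9 smooth muscle and pericyte markers summed to 304 and 305, 217 and 231, 345 and 308, 356 and 369.9 and 239 and 221 CPM in the same order of groups, with 5 of 7 tested lower with BML-260 at each time, 3 higher and 2 lower in ISO, and 2 higher and 0 lower in DMSO at 3 days (edgeR; 1 lower at an unadjusted p under 0.05 and 0 by DESeq2's Wald test). In the order BML-260 at 1 and 3 days, ISO and DMSO at 3 days, 33.3%, 66.7%, 66.7% and 66.7% of the preadipocyte and fibroblast markers were called. For smooth muscle and pericytes it was 71.4%, 71.4%, 71.4% and 28.6%, and for all tested genes 17.9%, 35.5%, 41.7% and 34.9%. The median log2 fold change of the smooth muscle and pericyte markers was -0.58 and -0.73 with BML-260, 0.01 in ISO and 0.07 in DMSO at 3 days. Their part in the matrix results was not tested.

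The 10 adipocyte markers summed to 14312 and 14007 CPM in DMSO and 17365 and 18041 in BML-260 at 1 day, and to 11868 and 11618 and 11444 and 11289 at 3 days, with 11618 and 11077 in ISO. Single markers went both ways with BML-260: 3 rose and 4 fell at 1 day, and 3 rose and 6 fell at 3 days. These are 70% and 90% of the list, beside 17.9% and 35.5% of all tested genes called. The 9 brown adipocyte markers summed to 727 to 822 CPM over all libraries, but single ones went both ways here too. Of 8 tested, 3 rose and 2 fell with BML-260 at 1 day, and 3 rose and 3 fell at 3 days. That is 62.5% and 75%, beside the same shares of all tested genes. Proliferation markers summed to 1373 to 1682 CPM, with 5 of 6 lower with BML-260 at 1 day and 2 of 6 at 3 days. Their called shares were 83.3% and 33.3%, the latter slightly below the 35.5% of all tested genes. The 3 chondrocyte markers in the table summed to 7.98 and 7.84 CPM in DMSO and 4.64 and 4.43 in BML-260 at 1 day, and to 15.6 and 15.4 and 9.76 and 8.05 at 3 days, with 14.9 and 13.3 in ISO and Acan at no more than 1 count. Endothelial markers stayed at or below 2.09 CPM, skeletal muscle markers at or below 1.43 and macrophage markers at or below 7.18. Cdh5, Cldn5, Itgam and Ckm, from these lists, had at most 1 count in any library. Others reached more, with at most 25 counts for Pecam1, 11 for Vwf, 6 for Kdr, 4 for Tek, 2 for Emcn, 9 for Csf1r and 5 for Myh3. Of the 7 endothelial markers 2 were tested. Of the macrophage and the skeletal muscle symbols 3 of 6 each were matched, and 1 each was tested. Cd68, a lysosomal protein of macrophages, reached 130 counts and was higher in ISO (log2 1.06 ± 0.18 SE, edgeR adjusted p = 2.4e-05) and with BML-260 at 3 days (log2 0.72 ± 0.17 SE, adjusted p = 0.0012). Acta1, skeletal muscle actin, reached 26 counts and was higher with BML-260 at 3 days (log2 1.95 ± 0.53 SE, adjusted p = 0.0052). Whether any of these moved the matrix values was not tested.

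The authors' deposited table for BML-260 at 1 day lists 24 members, all with a negative change. The authors' deposited table for 3 days lists 25 members, 3 with a positive and 22 with a negative change. Every member in these tables had the direction found here by edgeR. The tables rest on the same libraries, with identical counts for 1134 of 1134 matched genes at 1 day and 3181 of 3181 at 3 days. The shared direction is therefore not a separate result. Members called here and not listed there were Efemp2, Fbln1, Loxl3, Ogn and Prg4 at 1 day, and Dcn, Fbln1, Lamc1 and Loxl1 at 3 days.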

How the data were processed

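TopHat2 2.1.1, bcl2fastq 2.17.1.14, DESeq2 and bedtools are named in the submitters' processing notes, as are mm9 and mm10 without a role. The authors deposited whole-number counts per gene for 10 libraries (5 groups of 2), with no strand setting given in the sources used here. The authors' deposited comparison tables also hold log2 fold changes and p-values, used here only to see which members they list and in which direction. Totals were 16955918 to 21185675 counts, and precision is limited by 2 libraries per group.

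The 40 members were matched by symbol. The members, the lists of other genes and the markers were chosen with earlier results of these data known. Counts were fitted with edgeR 4.0.16 in R 4.3.3 (TMM, filterByExpr with a minimum count of 10 and total of 15, glmQLFit and glmQLFTest), with 1 mean per group over all 10 libraries and 5 residual degrees of freedom. In all, 15212 of 24640 genes were tested, with Benjamini-Hochberg adjustment over all of them and calls at an adjusted p under 0.05. Each SE was back-calculated from the F statistic (absolute log2 fold change over its square root). For each comparison of one group with another, the steps were tested on simulated data with changes set in some genes of at least 10 CPM. The difference between the BML-260 effects and changes in genes of lower level were not checked in this way.

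Members named with values were, in each main comparison, up to 8 called ones of largest change with at least 10 CPM, those called in the rarer direction, those whose BML-260 effects differed, and the 3 of highest mean CPM. Bgn was added after its values were seen, and other members are given mostly by their log2 change. Up to 3 called genes of smallest p could be named per list. The plan had foreseen printing protein sequences, which were not used here, and 4 promoters were printed in their place. Libraries of a group differed by more than sampling noise. Alternatives were DESeq2 size factors, upper-quartile scaling, no filter, DESeq2 1.42.0's Wald test, a fit of the compared groups only, a replicate block and leaving out each library. Coordinates come from GENCODE M21 (GRCm38).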

Additional observations from a re-analysis of the deposited data

Results flagged for a closer look

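For 6 members the effect of BML-260 at 3 days differed from that at 1 day by a test of the difference (edgeR adjusted p under 0.05). The differences in log2 fold change were 0.43 for Hspg2, 0.40 for Lama5 and 0.30 for Plod1, and -0.31 for Lama4, -0.29 for Thbs1 and -0.24 for Fbn1. They make up 3 members in each direction among 37 tested, where 8.44% of all tested genes passed.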

How the results depend on the processing

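Of 174 member calls over the 7 comparisons, 125 passed under every alternative that gave an adjusted p, 49 were lost under at least 1 and 0 changed sign. Among the 125 is Dcn in ISO against DMSO at 1 day and in BML-260 at 1 day against ISO. There it had an adjusted p under only 8 of 10 alternatives. Of 74 member counts under alternatives, 72 were within 1.5 times the count reported. The exceptions were the difference between the BML-260 effects, with 3 members without BML-260 3 days replicate 1 instead of 6, and ISO against DMSO at 3 days, with 9 without DMSO 3 days replicate 2 instead of 16. Leaving out 1 library at a time gave 23 to 29 called members for BML-260 at 1 day, 22 to 27 at 3 days, 3 to 8 for the difference between them, 25 to 29 for ISO against DMSO at 1 day, 9 to 16 against DMSO at 3 days, 22 to 24 for DMSO at 3 days against 1 day and 34 to 35 for BML-260 set against ISO; a group left with 1 library was assumed to vary like the others. Over all genes, the count called for BML-260 at 1 day went from 2728 to 1235 without DMSO 1 day replicate 2. For the difference, the members' split of 3 positive and 3 negative became 6 and 2 with DESeq2 size factors and 7 and 2 with a fit of the compared groups only, and for ISO against DMSO at 3 days 7 and 6 with DESeq2's Wald test. Same-numbered libraries did not deviate together (r from -0.034 to 0.058, 0 of 10 pairs of groups over 0.1), so the numbers were not taken as pairs. A replicate block gave 29, 29 and 8 called members for BML-260 at 1 day, at 3 days and the difference, 30 and 16 for ISO against DMSO at 1 and 3 days, 29 for DMSO at 3 days against 1 day and 35 for BML-260 set against ISO. The causes were not tested. With few counts, Dcn, Eln, Fmod and Lama2 could show only large changes.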
